A study of Mus musculus with 58 samples.

Results

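The regions described here are 2334 stretches of open chromatin that were bound by PU.1 away from promoters in HSCs of old, calorie-restricted mice. They were taken from 131918 ATAC-seq consensus peaks, of which they made up 1.77%. A peak was kept when it shared at least 1 bp with a PU.1 ChIP-seq peak of both OCR libraries and shared none with a promoter window. A promoter window was the 750 bp downstream of a RefSeq transcription start site (TSS) in the deposited table of promoter H3K4me3. PU.1 peaks of both OCR libraries overlapped 2920 ATAC-seq peaks in all, and the other 586 lay in promoter windows. Because the windows run downstream only, 40 of the 2334 distal PU.1 peaks had a TSS within 1 kb.

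The study asked how lifelong calorie restriction (CR) changes hematopoietic stem cells (HSCs) in aging male C57BL/6 mice and whether refeeding reverses it. HSCs were sorted from bone marrow of wild-type mice of 24 to 26 months by the LSK gate (no lineage markers, Sca-1 and c-Kit present) as cells that lacked CD34 and Flk2 and carried CD150. OAL mice had food ad libitum throughout, OCR mice were on 40% CR from early adulthood, and OCRRF mice were on the same restriction and then had food ad libitum for 4 weeks. ATAC-seq, which counts transposase insertions in open chromatin, had 4 OCR and 2 OCRRF libraries, PU.1 ChIP-seq had 2 libraries of each group, RNA-seq had 4 OAL, 4 OCR and 2 OCRRF libraries, and the promoter histone marks had 2 OCR libraries each. ATAC-seq of OAL was not analysed here, so accessibility was compared between OCR and OCRRF alone. Whether libraries of a group came from separate mice or from pools was not given in the labels, and p-values measure the spread between these libraries.

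PU.1, encoded by Spi1, is an ETS family transcription factor that binds a GGAA core within a purine-rich sequence. It is needed for myeloid and B cell development, keeps enhancers of blood cells accessible, and in HSCs is known to restrain the cell cycle. Most of its sites in blood cells lie outside promoters, in introns and between genes, where it often works beside RUNX, IRF and C/EBP factors.

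Sequences are shown from the mm10 (GRCm38) genome, plus strand, as 141 bases around the summit of the PU.1 peak of OCR replicate 1. Capitals mark every ETS core, GGAA or its reverse complement TTCC, and are extended to the 8 bases GAGGAAGT, or ACTTCCTC, where the full PU.1 core was present. The first set is shown because these were the 6 regions that passed the test of accessibility between OCR and OCRRF.

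Rnf180 intron, chr13:105139893-105140033: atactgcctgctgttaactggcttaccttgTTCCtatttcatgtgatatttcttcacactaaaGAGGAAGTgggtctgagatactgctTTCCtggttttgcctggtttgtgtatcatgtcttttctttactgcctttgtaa
Rgs6 intron, chr12:83004196-83004336: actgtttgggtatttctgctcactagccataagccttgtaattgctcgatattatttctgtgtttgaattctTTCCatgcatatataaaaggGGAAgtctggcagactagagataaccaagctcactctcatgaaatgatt
Cblb intron, chr16:52145070-52145210: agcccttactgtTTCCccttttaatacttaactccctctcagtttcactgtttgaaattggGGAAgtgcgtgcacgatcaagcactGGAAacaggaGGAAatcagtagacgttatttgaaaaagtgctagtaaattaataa
intergenic, nearest to Crim1, chr17:77642530-77642670: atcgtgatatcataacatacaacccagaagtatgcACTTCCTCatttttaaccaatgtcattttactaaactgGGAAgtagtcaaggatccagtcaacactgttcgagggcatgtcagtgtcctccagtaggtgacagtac
intergenic, nearest to Gm1653, chr3:149957066-149957206: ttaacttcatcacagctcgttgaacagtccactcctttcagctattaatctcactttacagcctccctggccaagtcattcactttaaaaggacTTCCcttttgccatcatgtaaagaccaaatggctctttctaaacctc
intergenic, nearest to Mir691, chr16:73875086-73875226: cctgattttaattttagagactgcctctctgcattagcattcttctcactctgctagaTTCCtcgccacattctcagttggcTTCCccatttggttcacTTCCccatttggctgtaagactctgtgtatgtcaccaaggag

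Of these, the Rnf180 and Crim1 windows held the full PU.1 core and the other 4 held ETS cores only. The second set is shown because these regions lay beside genes that the comparisons below turn on, and Spi1 because it encodes PU.1 itself.

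Spi1 upstream, chr2:91083042-91083182: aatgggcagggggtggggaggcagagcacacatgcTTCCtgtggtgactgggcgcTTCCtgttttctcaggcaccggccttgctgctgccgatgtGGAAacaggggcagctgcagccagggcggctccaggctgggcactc
Meis1 intron, chr11:18970101-18970241: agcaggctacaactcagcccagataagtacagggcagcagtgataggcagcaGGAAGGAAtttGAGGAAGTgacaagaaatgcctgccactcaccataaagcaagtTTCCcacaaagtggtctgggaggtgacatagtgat
E2f8 upstream, chr7:48908832-48908972: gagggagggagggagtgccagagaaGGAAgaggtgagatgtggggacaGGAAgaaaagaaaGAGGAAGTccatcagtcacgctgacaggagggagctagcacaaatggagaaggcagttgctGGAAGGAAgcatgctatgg
Kdr upstream, chr5:75981052-75981192: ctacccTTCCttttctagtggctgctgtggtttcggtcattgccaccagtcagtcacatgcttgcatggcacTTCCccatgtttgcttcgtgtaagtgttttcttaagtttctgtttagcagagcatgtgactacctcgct
Gimap6 downstream, chr6:48700334-48700474: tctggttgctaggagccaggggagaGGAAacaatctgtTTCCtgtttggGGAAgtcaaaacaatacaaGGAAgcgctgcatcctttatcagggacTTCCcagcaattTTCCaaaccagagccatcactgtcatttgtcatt

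In the Meis1 and E2f8 windows the full PU.1 core stood near the summit. The window upstream of Spi1 held 3 ETS cores and no full PU.1 core.

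The distal PU.1 peaks were mostly intronic or intergenic. By GENCODE M21 on GRCm38, 1120 centres (48.0%) lay in an intron of a protein-coding gene, 1095 (46.9%) between such genes, 82 in untranslated exons and 37 in coding exons. Distal peaks with no PU.1 peak in OCR (111796) were 46.2% intronic and 48.8% intergenic, close to these shares. The median distance from the centre to the nearest TSS was 25.3 kb (quartiles 9.74 and 65.5 kb), against 31.5 kb for the unbound distal peaks. A TSS stood within 10 kb of 600 regions (25.7%) and within 50 kb of 1600 (68.6%), and 365 (15.6%) were more than 100 kb from one. Chromosome 2 held the most, 183, and all chromosomes held some.

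Sequence set the PU.1-bound regions apart from distal open chromatin with no PU.1 peak in OCR. The PU.1 core GAGGAAGT occurred, on either strand within 300 bases around the centre, in 836 of 2334 regions (35.8%, 95% Wilson interval 33.9 to 37.8). It occurred in 6.70% of unbound distal peaks (6.55 to 6.85) and in 7.06% of all consensus peaks. Distal peaks with a PU.1 peak in 1 OCR library had it in 26.4%, and promoter peaks with PU.1 in both OCR libraries in 17.9%. The bare ETS core GGAA, which is part of GAGGAAGT, was near saturation, with 99.1% of the distal PU.1 peaks against 97.7% of the unbound ones. The ETS-IRF composite, the joint site of PU.1 with IRF4 or IRF8, stood in 6.77% against 4.09%. In distal peaks with a PU.1 peak in 1 OCR library it stood in 6.10%. RUNX (TGTGGT), the site of the stem cell factor Runx1, stood in 31.7% against 30.5%. The GATA site of the stem and erythroid factors (AGATAA) stood in 17.4% against 16.3%. The AP-1 site (TGANTCA) of Jun and Fos stood in 12.7% against 13.9%, and the E-box of bHLH factors such as Tal1 (CAGCTG) in 18.4% against 18.0%. The intervals of the distal PU.1 peaks contained the unbound share for RUNX, GATA, AP-1 and E-box but lay below it for AGGGGGC, part of the CTCF site of insulators and loop anchors, at 3.86% (3.15 to 4.72) against 6.75%.

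**Figure D1:**
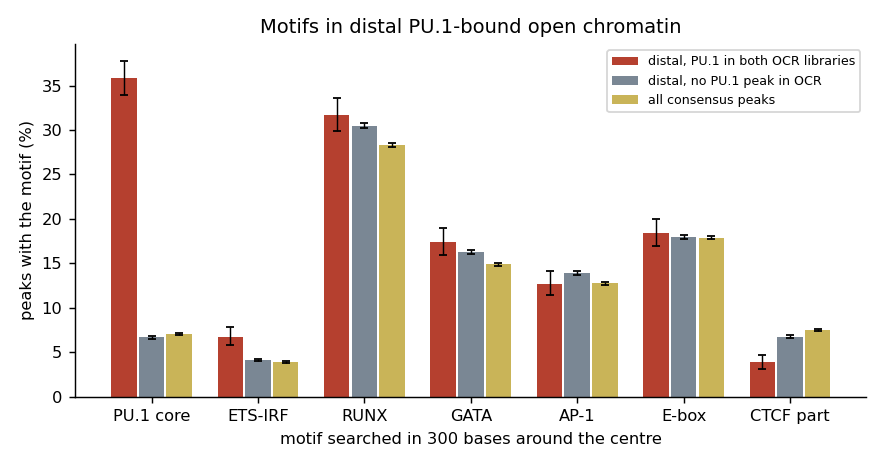
Share of peaks (%, vertical axis) that held each motif on either strand within 300 bases around the peak centre, for distal PU.1-bound peaks, distal peaks with no PU.1 peak in OCR and all consensus peaks, with 95% Wilson intervals. The PU.1 core is more frequent in the bound peaks (35.8%) than in the unbound ones (6.70%), while RUNX, GATA and E-box shares lie close together.

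Where the PU.1 core was present, it mostly lay close to the PU.1 summit. Around the OCR replicate 1 summit, 973 regions (41.7%) had the core within 150 bases and 862 of them within 50 bases, at a median distance of 13 bases. The core was more frequent in the less accessible regions, with 44.7% of the 571 regions under 4 CPM and 24.8% of the 234 regions over 32 CPM (CPM is the read count relative to all counts in peaks, scaled with edgeR's TMM factors). Regions under 4 CPM were also narrower, with a median width of 401 against 1069.5 bases over 32 CPM, so the fixed window covered more of each. Within 50 bases of the OCR replicate 1 summit, the core occurred in 43.6% of the regions under 4 CPM and 28.2% of those over 32 CPM. The part of width in this difference was not tested. Over all distal PU.1 peaks the median width was 758.5 bases (150 to 2159), the median GC content 46.4% and the median share of repeat-masked bases 13.7%, against 445 bases, 46.6% and 12.0% in unbound distal peaks.

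PU.1 was also called at most of these regions under the other diets. Of the 2334, 1721 (73.7%) had a PU.1 peak in OAL replicate 1 and 1661 (71.2%) in OAL replicate 2, and 1626 (69.7%) and 1408 (60.3%) in the OCRRF replicates. These libraries had 3046, 2900, 2817 and 2262 PU.1 peaks in all, fewer than the 5464 and 3852 of the OCR libraries whose peaks chose the regions, and no counts per region were given, so a missing peak is not a measured absence of PU.1. All 4 of these other libraries had a peak at 1079 regions (46.2%), and none of them at 241 (10.3%). Both OAL libraries and no OCRRF library had a peak at 94 regions, and the reverse held at 23.

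Regions called in every library were those with the strongest PU.1 signal in OCR. The fold enrichment of the PU.1 peak over background, as the peak caller gave it, had a median of 13.7 in OCR replicate 1 and 12.1 in replicate 2 at the 1079 regions, and of 6.82 and 6.72 at the 241. The full PU.1 core occurred in 41.2% of the 1079 and in 27.0% of the 241. Their accessibility differed in the same order, with median levels of 11.0 and 6.58 CPM. The labels name the PU.1 antibody for replicate 1 alone, so fold enrichments are set side by side within a replicate number. Fold enrichments of the 2 OCR replicates ranked the regions alike (Spearman's rho 0.75 over 2325 regions, a description across regions that share both libraries).

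One of the distal PU.1 peaks lay at Spi1, the gene of PU.1. The region chr2:91082849-91083374, chosen after its values were seen, lay in an intron of Spi1 as annotated and 13.6 kb upstream of the RefSeq Spi1 start, and by distance its nearest start belonged to Slc39a13, 12.8 kb away. An element upstream of Spi1 is known as the enhancer through which PU.1 sustains its own expression. PU.1 fold enrichment there was 15.0 and 9.29 in the OCR replicates, 8.50 and 5.49 in OAL, and 9.43 and 7.74 in OCRRF. Accessibility was 17.2, 17.6, 19.8 and 18.4 CPM in OCR and 20.7 and 21.2 CPM in OCRRF. All OCR libraries lay below both OCRRF libraries, yet the difference did not pass the test (log2 fold change -0.20 ± 0.11 SE, edgeR quasi-likelihood adjusted p = 0.489). Spi1 RNA was 52.8, 59.4, 55.1 and 58.0 CPM in OAL, 63.7, 64.3, 58.4 and 58.5 in OCR, and 48.9 and 52.5 in OCRRF. It passed neither comparison (adjusted p = 0.517 against OAL and 0.199 against OCRRF, edgeR quasi-likelihood test).

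Accessibility of the distal PU.1 peaks, in CPM per peak and not scaled to width, was high for distal chromatin. The ATAC-seq libraries held 15721335 to 19558148 counts in peaks, of which 3.31% to 3.42% fell in these regions. The median level per library was 9.44, 9.12, 9.12 and 9.18 CPM in OCR and 8.95 and 8.69 CPM in OCRRF. All OCR medians were thus above both OCRRF medians, as they also were over all 131918 peaks (2.66 to 2.71 CPM against 2.59 and 2.65 CPM). The unbound distal peaks had a median over the 6 libraries of 2.12 CPM and the promoter peaks bound by PU.1 one of 30.1 CPM, against 9.06 CPM (quartiles 4.05 and 18.8) for the distal PU.1 peaks. Distal peaks with a PU.1 peak in 1 OCR library were close to the latter, at 7.17 CPM. Median widths were 758.5 bases for the distal PU.1 peaks, 735 with PU.1 in 1 OCR library and 445 for the unbound ones. Width and level had a Spearman's rho of 0.74 over 2325 distal PU.1 peaks.

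**Figure D2:**
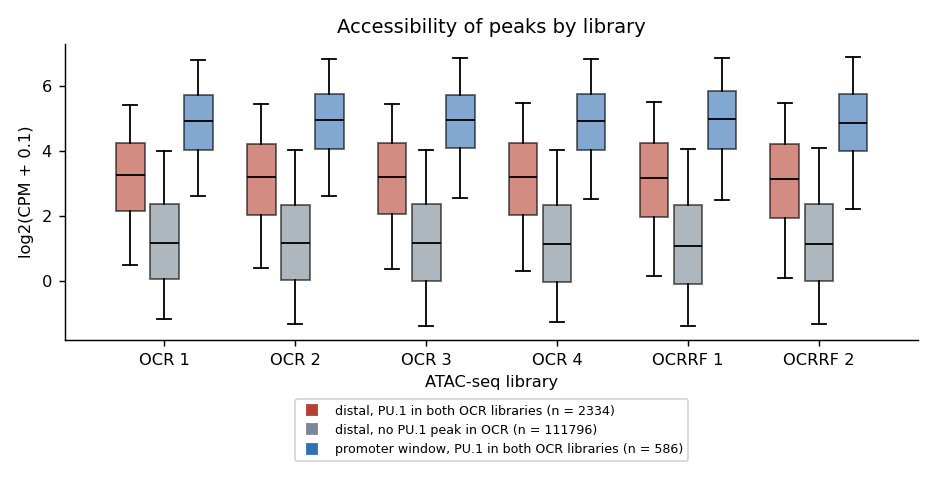
Accessibility, log2(CPM + 0.1), in each ATAC-seq library of OCR and OCRRF for distal PU.1-bound peaks, distal peaks without a PU.1 peak in OCR and PU.1-bound promoter peaks. Boxes span the quartiles with the median as a line and whiskers run from the 5th to the 95th percentile of peaks, and within each class the 6 libraries lie at nearly the same height.

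In the comparison of OCR with OCRRF, 2325 of the 2334 regions had enough counts to be tested among 123372 peaks. A region was taken as differentially accessible (DAR) at a mean log2 CPM over 1.5 when it changed by over 1.5 times and its adjusted p was under 0.05, with edgeR's quasi-likelihood test and Benjamini-Hochberg adjustment over all tested peaks. Of the distal PU.1 peaks, 6 were DARs higher in OCR (0.258%, background over all peaks 0.0908%, or 112 peaks) and 0 were lower (background 0.13%, or 161 peaks). At an unadjusted p below 0.05, 224 (9.63%) were higher and 155 (6.67%) lower, against 5.55% and 6.16% of all peaks. DESeq2 called 5 higher (0.215%, all peaks 0.0632%) and 0 lower (all peaks 0.094%), not all of them among the 6. The Cblb, Gm1653, Crim1 and Mir691 regions passed with DESeq2 (adjusted p from 3.7e-05 to 0.047). For the Rnf180 and Rgs6 regions no adjusted p from DESeq2 was available. By edgeR's adjusted p alone 9 were higher and 9 lower (0.387% each, all peaks 0.173% and 0.353%). The count of 6 was small and moved when single libraries were left out, from 2 without OCR replicate 1, OCR replicate 2 or OCRRF replicate 1 and 3 without OCRRF replicate 2 to 9 without OCR replicate 4. The counts over all peaks moved with it, from 24 without OCRRF replicate 1 to 146 without OCR replicate 4.

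The region with the smallest adjusted p of the 6 lay in an intron of Cblb, which encodes a ubiquitin ligase that damps receptor signaling. This region, chr16:52144596-52145390, stood 113 kb downstream of the Cblb start. It had 30.2, 29.9, 23.4 and 29.5 CPM in OCR and 16.1 and 18.2 CPM in OCRRF, a log2 fold change of 0.72 ± 0.11 (SE, edgeR quasi-likelihood adjusted p = 0.000266). OCR and OCRRF did not overlap, and PU.1 was called there in all 6 PU.1 libraries. Cblb RNA did not pass the test against OCRRF (log2 fold change 0.26 ± 0.14, adjusted p = 0.36, edgeR quasi-likelihood test).

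The intergenic region chr3:149956771-149957740, 683 kb from Gm1653, had 21.7, 18.9, 21.1 and 15.1 CPM in OCR and 10.0 and 12.8 CPM in OCRRF (log2 fold change 0.76 ± 0.14 SE, edgeR quasi-likelihood adjusted p = 0.00289). It was the one region of the 6 with a PU.1 peak in OCR alone. The region chr17:77642240-77642939, 558 kb upstream of Crim1, a membrane protein that binds BMPs, had 9.54, 8.39, 9.24 and 8.71 CPM against 4.11 and 6.21 CPM. OCR was higher in every library there as well (log2 fold change 0.80 ± 0.18 SE, edgeR quasi-likelihood adjusted p = 0.028).

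By adjusted p, the other 3 DARs were closer to the threshold. The Rnf180 intron region (chr13:105139813-105140457, nearest start Nt5el at 58.0 kb) had 5.52, 5.33, 4.93 and 4.51 CPM in OCR and 2.14 and 3.02 CPM in OCRRF (log2 fold change 0.98 ± 0.24 SE, edgeR quasi-likelihood adjusted p = 0.0376). The Rgs6 intron region (chr12:83003939-83004662) had 4.87, 4.90, 4.19 and 5.21 CPM against 2.53 and 2.41 CPM (log2 fold change 0.95 ± 0.24 SE, edgeR quasi-likelihood adjusted p = 0.0462). Rgs6 encodes a regulator of G protein signaling. The intergenic region chr16:73874850-73875711, 467 kb from Mir691, had 22.3, 16.3, 13.6 and 16.0 CPM against 11.7 and 10.9 CPM (log2 fold change 0.60 ± 0.15 SE, edgeR quasi-likelihood adjusted p = 0.0388). Apart from the Cblb intron region, which passed the test under every alternative run, the DARs missed the threshold without at least 1 library each, and without OCRRF replicate 1 all 5 missed it (adjusted p from 0.157 to 0.405, edgeR quasi-likelihood test). The Rgs6 region also missed it with loess offsets (adjusted p = 0.0569) and with no filter on low counts (adjusted p = 0.0547, edgeR quasi-likelihood test). In all of these 3, no OCR library reached down to the OCRRF values. All 6 DARs had a GC content of 36.5% to 45.3%, below the median of the distal PU.1 peaks. Of the nearest and host genes of the 6 that could be tested in RNA (Cblb, Crim1, Rnf180 and Rgs6 in both comparisons and 1700085C21Rik against OCRRF), none passed the test in either comparison.

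**Figure D3:**
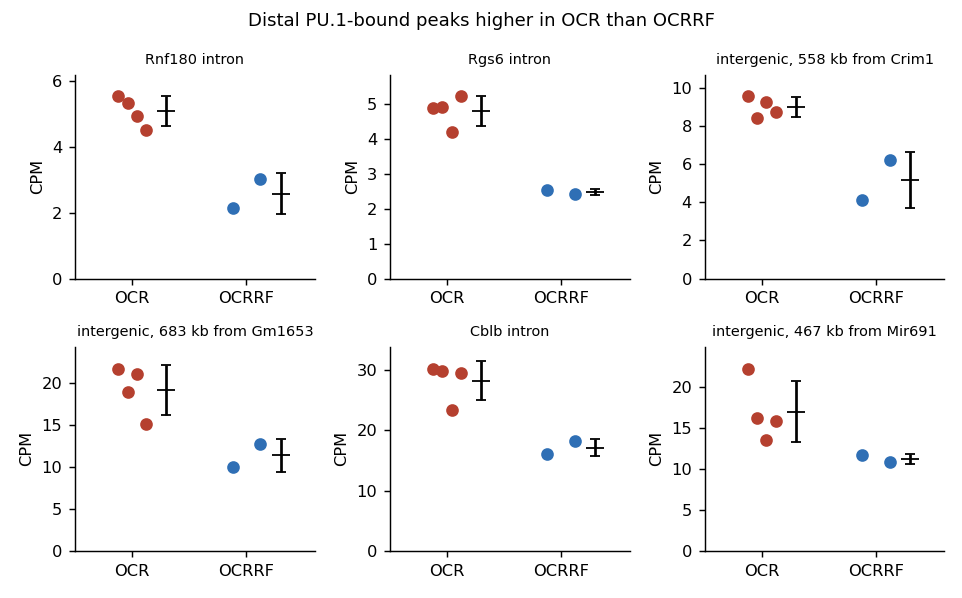
Accessibility (CPM, linear axis from 0) in each OCR and OCRRF library at the 6 distal PU.1-bound regions that passed the test, with the mean and SD beside the points. In each panel the 4 OCR points lie above both OCRRF points, and the Cblb intron has the smallest adjusted p (0.000266).

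Beyond the 6 DARs, the distal PU.1 peaks leaned toward OCR, and the lean depended on how open a region was. Over all 2325 tested, the median log2 fold change was 0.04 (quartiles -0.10 and 0.21), against 0.01 over all tested peaks, and 1328 (57.1%) were above 0 against 50.9% of all peaks. All 4 OCR libraries were above both OCRRF libraries at 347 regions (14.9%, background over all peaks 9.99%), and all below at 240 (10.3%, background 10.4%). Fold changes of the distal PU.1 peaks were anticorrelated with their level (Spearman's rho -0.37 over 2325 regions, a description across regions that share the 6 libraries).

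The lean toward OCR was greatest at the least accessible regions. Under 4 CPM, 562 distal PU.1 peaks had a median log2 fold change of 0.21 (quartiles -0.01 and 0.44) and 419 of them (74.6%) were above 0. Unbound distal peaks under 4 CPM had a median of 0.06 and 55.5% above 0. The OCR libraries were all above both OCRRF libraries at 110 of these 562 regions (19.6%), against 10.7% of the unbound ones. The median level of the distal PU.1 peaks under 4 CPM was 2.36, 2.27, 2.096 and 2.097 CPM in OCR and 1.97 and 1.81 CPM in OCRRF, without overlap between the groups. That of the unbound peaks was 1.31, 1.29, 1.30 and 1.271 CPM in OCR and 1.18 and 1.267 CPM in OCRRF, also without overlap. Of the 562 regions, 368 were at or below the mean log2 CPM that a DAR needed and could not be called. The other 194 were over it, and 0 of the 562 had an adjusted p under 0.05 (edgeR quasi-likelihood test). Of the unbound distal peaks under 4 CPM, 121 of 68505 did, 79 of them higher in OCR.

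With more accessibility the lean shrank and then turned. With loess offsets, which rescale the libraries by level, the median under 4 CPM was 0.17 for the distal PU.1 peaks and 0.0019 for the unbound ones. The part of width in this slope was not tested. The median log2 fold change of the distal PU.1 peaks was 0.08 at 4 to 8 CPM, 0.04 at 8 to 16 CPM, -0.03 at 16 to 32 CPM and -0.06 over 32 CPM. The unbound distal peaks had -0.01, -0.04, -0.07 and -0.08 at these levels, so the same slope ran through all distal chromatin and the distal PU.1 peaks lay above it at each level. Of 20 combinations of 5 accessibility classes and 4 classes of GC content, the median of the distal PU.1 peaks was the higher in 19. Distal peaks with a PU.1 peak in 1 of the OCR libraries had medians of 0.18, 0.08, -0.01, -0.08 and -0.09 from the lowest to the highest level, between the other classes up to 16 CPM and below both over it. Promoter peaks with PU.1 in both OCR libraries had 0.19 (18 peaks), 0.17 (34 peaks), 0.06, -0.01 and -0.03. Promoter peaks without a PU.1 peak in OCR had 0.10, 0.03, 0.02, -0.02 and -0.055. A median above the unbound distal peaks at each level was therefore not particular to the distal PU.1 peaks.

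**Figure D4:**
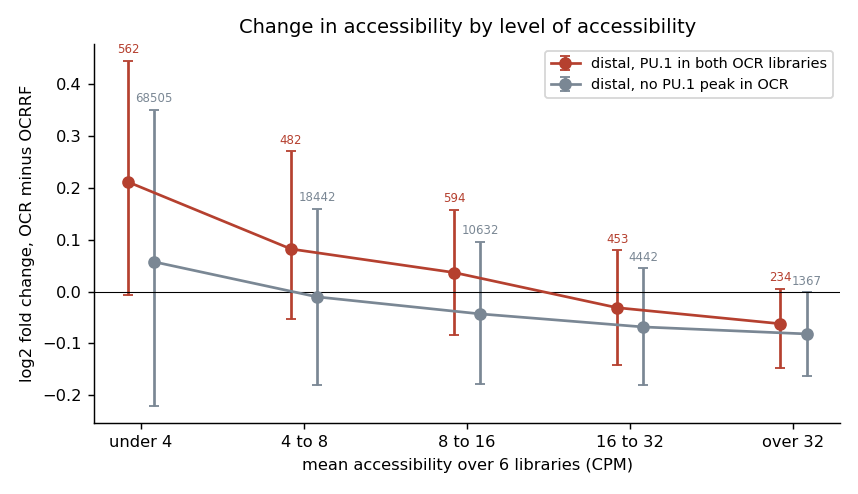
Median log2 fold change in accessibility, OCR minus OCRRF, by mean accessibility over the 6 libraries (CPM) for distal PU.1-bound peaks and distal peaks without a PU.1 peak in OCR. Bars span the quartiles of peaks, numbers above them give the peaks in each class, and the PU.1-bound median goes from 0.21 under 4 CPM to -0.06 over 32 CPM.

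The lean was also present when PU.1 peaks of other libraries chose the regions, but these sets shared most of their regions with the first. Of 1307 distal peaks with PU.1 in both OCRRF libraries, 1213 were among the 2334, and of 1597 with PU.1 in both OAL libraries, 1433 were. Similar medians were thus largely fixed in advance, and the regions outside the overlap were not read apart. Distal peaks with a PU.1 peak in both OCRRF libraries, chosen after the data were seen, had a median log2 fold change of 0.20 under 4 CPM (267 peaks), and those with one in both OAL libraries 0.23 (316 peaks). Fold enrichment and log2 fold change had a Spearman's rho of 0.02 in replicate 1 and -0.01 in replicate 2 over 2325 regions. Under 4 CPM the median log2 fold change was similar with no OCRRF PU.1 peak (0.23, 170 regions), with 1 (0.20, 154 regions) and with 2 (0.20, 238 regions).

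The 5 most accessible distal PU.1 peaks differed in kind. The highest of all consensus peaks, chr19:61266335-61267238 near Csf2ra, the receptor chain for GM-CSF, had 384, 420, 375 and 403 CPM in OCR and 504 and 470 CPM in OCRRF. It was lower in OCR in every library (log2 fold change -0.30 ± 0.04 SE, edgeR quasi-likelihood adjusted p = 4.41e-05), under the 1.5-fold limit for a DAR, and had no PU.1 peak in OCRRF. The region chr8:4677251-4678935 near Zfp958 had 247 to 267 CPM over all 6 libraries and chr6:11593494-11594794 had 118 to 140 CPM. Neither passed the test. The remaining 2 of the top 5, chr14:19415647-19416385 and chr14:19416902-19418317, had 76.2% and 87.6% repeat-masked bases and PU.1 fold enrichments of 4.87 to 5.87 in all 6 libraries. None of the 5 held the PU.1 core in the 300 bases around the centre or within 150 bases of the OCR replicate 1 summit. The rest of each region was not searched. Regions with over 50% of their bases repeat-masked made up 4.33%, against 6.37% of unbound distal peaks.

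The 2334 regions had 2030 nearest genes. A single region belonged to 1780 of them, 2 regions to 202 and 3 regions to 43. Elmo1, which links receptors to Rac activation in migration and engulfment, was nearest to 5, of which 4 lay within the gene and 2 held the PU.1 core. Its regions had mean levels of 2.95 to 42.4 CPM and log2 fold changes of -0.27 to 0.06, and Elmo1 RNA was 354 to 410 CPM in OAL, 371 to 410 in OCR and 359 and 373 in OCRRF, without a change that passed the test. Ube2e3, a ubiquitin-conjugating enzyme, and Plcg2, a phospholipase downstream of immune receptors, had 4 regions each, with the PU.1 core in 3 of each. Gm3629 and Sox5os3 also had 4 each, and their RNA was under 1 CPM in every library. Among the genes with 3 regions, those with the highest summed accessibility were Foxp1, Cbfa2t3 and Mir7681. Foxp1, a forkhead repressor that acts in lymphocyte development, was lower in OCR than OAL at the RNA level, with 124 to 134 CPM against 159 to 172 CPM (log2 fold change -0.34 ± 0.08 SE, edgeR quasi-likelihood adjusted p = 0.0039). Foxp1 RNA was 135.7 and 135.9 CPM in OCRRF, and the comparison of OCR with OCRRF did not pass the test (log2 fold change -0.02).

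The nearest genes had higher RNA and H3K4me3 levels than the median gene. In the RNA-seq, which held 23497989 to 34385179 counts per library, 2000 of the 2030 symbols were found, and the 1769 tested against OAL had a median level of 28.5 CPM, against 3.13 CPM over all 27150 genes. Genes nearest to an unbound distal peak and to no distal PU.1 peak had a median of 12.7 CPM. All 12 HSC markers on the list were above 1 CPM in every library, with summed levels of 4787 to 6562 CPM over the 3 groups. The summed levels of the neutrophil, monocyte, B, T and erythroid lists were 14.9 to 403 CPM, the megakaryocyte list had 1082 to 1397 CPM, and no listed marker was at 0 in all libraries. H3K4me3, a mark of active promoters, had a median of 21.0 and 20.2 in the 2 OCR libraries at the nearest genes against 10.8 and 10.2 over all genes (the authors' mean signal per base). H3K27me3, the Polycomb mark of silent promoters, had on the same scale 0.268 and 0.282 against 0.341 and 0.344. Genes nearest to an unbound distal peak and to no distal PU.1 peak had medians of 12.1 and 11.5 for H3K4me3 and 0.372 and 0.376 for H3K27me3.

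Against OAL, both higher and lower genes were found nearest to distal PU.1 peaks. DEGs were genes that changed by over 1.2 times with an adjusted p under 0.05. Of the 1769 tested, 117 (6.61%) were lower in OCR (background over all genes 3.03%) and 73 (4.13%) were higher (background 2.54%). The difference in level between these genes and others was large, so the shares were also read within levels. Over 64 CPM, 9.75% of 554 nearest genes were lower in OCR against 5.39% of the other genes, and 5.23% were higher against 4.10%. At 16 to 64 CPM the lower shares were 7.84% and 5.98% and the higher shares 6.14% and 5.08%. At 4 to 16 CPM the lower shares were 10.1% and 5.45%, while the higher share of the nearest genes, 4.61%, was below the 5.35% of other genes. With TMM factors from genes over 5 CPM, 91 (5.14%) were higher and 93 (5.26%) lower, against 3.30% and 2.57% of all genes. Without OAL replicate 2, 75 were higher and 75 lower (4.18% each), against 2.37% and 1.87% of all genes. Genes nearest to unbound distal peaks and to no distal PU.1 peak were lower in 4.23% and higher in 3.16%. In bulk RNA, fewer cells of a type and less RNA per cell cannot be told apart.

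Against OCRRF, which shares the OCR libraries with the comparison above, the nearest genes were called in both directions as well. Of 1854 tested, 91 (4.91%) were higher in OCR (background 2.71%) and 34 (1.83%) were lower (background 0.694%). Over 64 CPM, 9.84% were higher against 9.02% of other genes, and 1.64% lower against 0.820%. At 16 to 64 CPM the higher share was 6.58% against 6.71% and at 4 to 16 CPM 1.82% against 3.59%, so within these levels the nearest genes were not called higher at a greater share than other genes. Their lower shares there were 2.47% against 1.119% and 3.64% against 1.64%. The split between higher and lower moved with the scaling, for the nearest genes as for all genes. With TMM factors from genes over 5 CPM, 60 (3.24%) were higher and 57 (3.07%) lower, against 1.77% and 1.04% of all genes, whose median went from -0.11 to -0.24. Leaving out OCRRF replicate 1 gave 23 (1.21%) higher and 4 (0.211%) lower, against 0.802% and 0.168% of all genes. Leaving out OCR replicate 3 gave 171 (9.31%) and 72 (3.92%), against 5.75% and 3.06%.

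**Figure D5:**
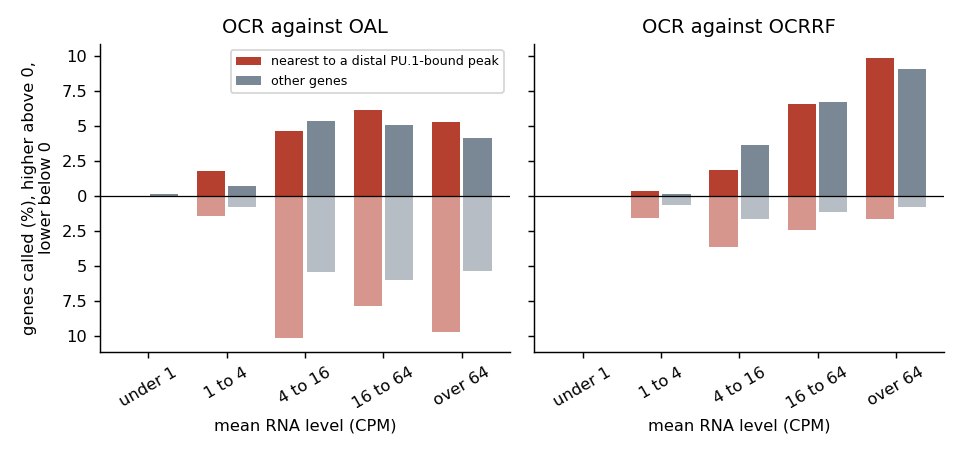
Share of genes (%) called higher (above 0) or lower (below 0) in OCR, by mean RNA level (CPM), for genes nearest to a distal PU.1-bound peak and for all other tested genes, against OAL on the left and OCRRF on the right. Against OAL the lower share of the nearest genes is above that of other genes from 4 CPM upward, with 9.75% against 5.39% over 64 CPM.

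Among nearest genes of at least 5 CPM without overlap between OCR and OAL, the 5 with the largest increases were Mki67, Pbk, E2f8, Fignl1 and Ticrr. Mki67, the proliferation antigen Ki-67, had RNA of 127, 155, 102 and 116 CPM in OCR, 32.4, 41.7, 34.8 and 35.7 in OAL, and 38.3 and 36.8 in OCRRF. Its log2 fold change was 1.79 ± 0.11 against OAL and 1.76 ± 0.15 against OCRRF (SE, edgeR quasi-likelihood adjusted p = 1.3e-11 and 3.4e-10). The groups did not overlap. Pbk, a mitotic kinase, had log2 fold changes of 1.76 and 1.56, E2f8, a repressor of late cell cycle E2F targets, of 1.65 and 1.90, Fignl1, a factor of recombination repair, of 1.42 and 1.55, and Ticrr, which is needed to start replication, of 1.30 and 1.43. All 4 were DEGs in both comparisons without overlap of the OCR libraries with either group.

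None of the distal PU.1 peaks of these genes passed the test of accessibility. The region 19.7 kb upstream of Mki67 had 46.0, 55.4, 45.4 and 37.5 CPM in OCR and 43.3 and 38.8 CPM in OCRRF (log2 fold change 0.17 ± 0.09 SE, edgeR quasi-likelihood adjusted p = 0.495). The region 27.4 kb upstream of E2f8, in an intron of Nav2, had 47.2, 48.1, 47.4 and 45.9 CPM against 47.9 and 40.8 CPM (log2 fold change 0.09 ± 0.08 SE, adjusted p = 0.722, edgeR quasi-likelihood test). PU.1 fold enrichment there was 19.8 and 17.2 in OCR, and 15.6 to 18.0 in the other 4 libraries. The regions nearest to Pbk, Fignl1 and Ticrr had log2 fold changes in accessibility of -0.11, 0.04 and -0.17, with adjusted p from 0.835 to 0.941 (edgeR quasi-likelihood test). The first lay 52.3 kb from the Pbk start in an intron of Scara5. The second lay 45.6 kb from the Fignl1 start in an intron of Ikzf1. The Ticrr region had a mean of 1.21 CPM, from 17 to 24 counts per library.

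By the same rule, the 5 with the largest decreases were Slfn2, Cyp26b1, Kdr, Jun and Dhrs3. Kdr, the VEGF receptor 2, had RNA of 13.9, 18.1, 20.8 and 27.0 CPM in OCR, 44.3, 48.0, 41.5 and 43.3 in OAL, and 49.7 and 34.5 in OCRRF. Its log2 fold change was -1.14 ± 0.13 against OAL and -1.05 ± 0.17 against OCRRF (SE, edgeR quasi-likelihood adjusted p = 7.8e-07 and 8.5e-05). Its region 2.72 kb upstream was bound by PU.1 in all 6 libraries and had 6.02, 4.96, 5.10 and 4.26 CPM in OCR and 5.97 and 5.73 CPM in OCRRF. The groups overlapped there, and the accessibility did not pass the test (adjusted p = 0.764, edgeR quasi-likelihood test).

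Jun, an AP-1 subunit, had RNA of 26.0, 22.2, 23.8 and 28.2 CPM in OCR, 54.8, 49.7, 55.1 and 61.2 in OAL and 76.3 and 43.8 in OCRRF, with log2 fold changes of -1.13 and -1.24. Slfn2, which keeps immune cells quiescent, had log2 fold changes of -1.31 and -1.94. Cyp26b1, which breaks down retinoic acid, and Dhrs3, which reduces retinal, had -1.21 and -0.81 and -1.09 and -0.57. All 5 decreases passed the test in both comparisons, but without OCRRF replicate 1 those of Kdr, Cyp26b1 and Dhrs3 against OCRRF did not (adjusted p = 0.0678, 0.107 and 0.376, edgeR quasi-likelihood test). The Dhrs3 decrease against OCRRF missed the threshold in 4 alternatives in all and kept its call in 8. The PU.1-bound regions of Slfn2, Cyp26b1, Jun and Dhrs3 with the highest accessibility had log2 fold changes of -0.11, -0.00048, -0.12 and 0.17, and none passed the test (the smallest adjusted p was 0.567, at Dhrs3, edgeR quasi-likelihood test).

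Accessibility was then read by the RNA call of the nearest gene against OCRRF. The 103 distal PU.1 peaks nearest to a gene higher in OCR had a median log2 fold change in accessibility of 0.06 and 63.1% above 0. The 40 nearest to a gene lower in OCR had -0.05 and 40.0% above 0, and the 1985 nearest to genes not called had 0.04 and 57.1%. These are descriptions over regions, and the classes differed in median accessibility, 10.9, 12.0 and 9.07 CPM.

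Of 36 genes listed as PU.1 and its myeloid targets, 10 were nearest to a distal PU.1 peak, with 15 regions. Over all genes with a promoter window, 2030 of 25127 were nearest to one. None of the 15 was a DAR, 7 had a log2 fold change above 0 and the median was -0.04. The region 19.1 kb from Tyrobp, an adaptor of myeloid receptors, held the PU.1 core and PU.1 fold enrichments of 18.9 and 14.2 in OCR. Itgam, the integrin chain of Mac-1, had 2 regions with the core, and its RNA was 3.30 ± 0.629 CPM in OCR and 1.66 ± 0.444 CPM in OAL (SD, n = 4 each). This rise of 0.99 ± 0.25 (SE) on the log2 scale passed the test (edgeR quasi-likelihood adjusted p = 0.0146). Of the 10 genes, Itgam was higher and Jun lower in OCR than OAL, Jun was lower than OCRRF, and the others, among them Csf1r, Csf2ra, Cebpa, Egr1 and Coro1a, passed neither test.

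Stem cell transcription factors had the most distal PU.1 peaks of the lists, 23 beside 10 of 26 genes (over all genes, 2030 of 25127 were nearest to one). Runx1, Etv6, Ikzf1, Cbfa2t3 and Bcl11a had 3 each, Fli1, Meis1 and Mecom 2 each, and Erg and Hhex 1 each. None of the 23 was a DAR, with a median log2 fold change of 0.04 and a range of -0.65 to 0.50, the ends of which both lay at Bcl11a. The most accessible, in an intron of Meis1, a HOX cofactor of HSCs, had 52.0, 54.7, 50.5 and 53.4 CPM in OCR and 56.8 and 54.7 CPM in OCRRF. The groups overlapped (log2 fold change -0.08 ± 0.07 SE, edgeR quasi-likelihood adjusted p = 0.704). Its PU.1 core lay 3 bases from the summit and PU.1 fold enrichment was 14.5 to 19.1 over the 6 libraries. At the RNA level Hhex was lower in OCR than OAL (log2 fold change -0.42) and Ikzf1 higher than in OCRRF (0.45), and the other 8 passed neither test.

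The remaining lists had few regions. The cell cycle list had 4 of 36 genes and 5 regions, with 0 DARs, beside Mki67, Cdk6, Ccnd2 and E2f8, of which Mki67, Cdk6 and E2f8 were higher in OCR in both RNA comparisons. In the whole list, 28 of 36 tested were higher than OAL and 0 lower (background over all genes 2.54% and 3.03%). The list includes genes, Mki67 among them, that the study named as higher in OCR on these samples, so this count was partly fixed in advance. The most accessible Cdk6 region, 145 kb upstream, had 48.0 to 56.5 CPM in OCR and 51.8 and 53.0 CPM in OCRRF. The list of genes named by the study, which was chosen on these samples, had 2 of 15, Kdr and Mki67. The lymphoid list had 2 of 21, Blnk and Gimap6.

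Gimap6, a GTPase of lymphocyte survival, had a region 7.84 kb downstream of its start with 8.03, 7.72, 9.29 and 8.52 CPM in OCR and 12.6 and 10.0 CPM in OCRRF. All OCR libraries were below both OCRRF libraries, but the difference did not pass the test (log2 fold change -0.43 ± 0.15 SE, edgeR quasi-likelihood adjusted p = 0.218). Gimap6 RNA was 174 ± 22.6 CPM in OCR and 250.2 ± 32.6 CPM in OAL (SD, n = 4 each) and was lower in OCR in both comparisons, by log2 fold changes of -0.52 and -0.63.

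The megakaryocyte and erythroid list had 3 of 22 genes and 5 regions, of which 4 were tested and 0 were DARs. The most accessible lay 25.9 kb upstream of Nfia, a factor of erythroid fate, with 62.0 to 68.2 CPM in OCR and 69.2 and 68.3 CPM in OCRRF, and Nfia RNA was lower in OCR than OAL (log2 fold change -0.52). Vwf, the platelet adhesion protein and a marker of platelet-biased HSCs, had 2 regions within the gene with log2 fold changes of -0.10 and -0.04, and its RNA was lower than in OCRRF (-0.51) and did not pass against OAL (-0.40, adjusted p = 0.052, edgeR quasi-likelihood test). The integrin and adhesion list had 6 of 20 genes and 7 regions, 0 of them DARs. Its most accessible region, 2.36 kb downstream of the start of Esam, an adhesion molecule of HSCs, had 99.8 to 112 CPM in OCR and 117 and 121 CPM in OCRRF (log2 fold change -0.14 ± 0.06 SE, edgeR quasi-likelihood adjusted p = 0.288). Itga4 and Itgam RNA were higher in OCR than OAL, and the other 4 genes passed neither test.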

How the data were processed

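Bulk ATAC-seq, PU.1 ChIP-seq, histone ChIP-seq and RNA-seq of sorted mouse HSCs were analysed, grouped by the labels. The authors trimmed reads with cutadapt, mapped them to mm10 (BWA for ATAC-seq and ChIP-seq, STAR for RNA-seq) and kept deduplicated unique reads for ATAC-seq and ChIP-seq. The deposited ATAC-seq values are raw read counts per consensus peak, 1 peak set over the libraries, and whether cut sites were shifted for the transposase was not given in the sources used here. The deposited RNA-seq values are raw read counts per gene from featureCounts, and the strand setting was not given. PU.1 peaks were called by the authors with MACS2 in each library, and the deposited columns hold fold enrichment (a ratio over local background), a peak score and −log10 p and q values. The deposited histone values are signal at promoters, normalized by the authors.

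Members and gene lists were chosen with earlier results of these data known. Counts were fitted with edgeR 4.0.16 (TMM, filterByExpr, glmQLFit and glmQLFTest) in R 4.3.3, over all peaks (OCR and OCRRF) or all genes (OCR with OAL, OCR with OCRRF), with Benjamini-Hochberg adjustment. DESeq2 1.42.0 served as an alternative, as did other scalings, filters and leaving out each library. The main edgeR fit and DESeq2 were also run on simulated counts for each comparison, with an outcome that is not given here. Calls needed an adjusted p under 0.05 with a change of over 1.5 times and a mean log2 CPM over 1.5 in ATAC-seq, or of over 1.2 times in RNA-seq. Intervals of shares are 95% Wilson intervals and cover counting error only. The nearest gene was that of the closest start in the promoter table, of whose 31393 transcripts matched to RefSeq GRCm38 98.6% had starts within 100 bases. Sequence came from GRCm38.

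Regions named were the 6 with the largest fold change per direction among those called without overlap, the most accessible one per gene list, those of the 8 genes with the most regions and the 5 most accessible. RNA was named for the 5 nearest genes with the largest fold change per direction against OAL with at least 5 CPM and no overlap. The Spi1 region was added. ATAC-seq of OAL, histone marks of OAL and the young and transplanted RNA-seq libraries were not used here.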

Additional observations from a re-analysis of the deposited data

Results flagged for a closer look

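Among 53 groups of 4 libraries tested for a library far from the others by Dixon's test at 95%, 3 were flagged, and chance flags about 1 in 20. In the Cblb intron region, OCR replicate 3 had 23.4 CPM, below the other 3 OCR libraries and still above both OCRRF libraries. For the RNA of Slfn2, OCR replicate 1 had 18.9 CPM, below the other OCR libraries, and for that of Dhrs3 the same library had 15.9 CPM. Both genes were also lower in OCR than OAL in every other OCR library.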

How the results depend on the processing

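The median log2 fold change of the distal PU.1 peaks was 0.065 with TMM factors from peaks over a mean log2 CPM of 1.5 and 0.075 with total counts and no TMM, against 0.04, and the median over all peaks moved alike, to 0.03 and 0.04 from 0.01. Leaving out single libraries gave 0.02 to 0.06, the lowest without OCRRF replicate 2, where all peaks had 0.01. Under 4 CPM the median was 0.17 to 0.25 over 18 alternatives and that of the unbound distal peaks 0.0019 to 0.10, a difference of 0.10 to 0.18. Regions higher in OCR numbered 2 to 9 and lower 0 to 3 when single libraries were left out, and 9 were higher and 9 lower by adjusted p alone. When PU.1 peaks of both OCRRF libraries chose the regions, an alternative added after seeing the data, 3 of 1301 were higher (0.231%, all peaks 0.0908%). Of the 1307 regions in that set, tested or not, 1213 were also in the main set. Deviations of same-numbered libraries from their group means had correlations of -0.02 and -0.02 in ATAC-seq, -0.14 to 0.11 in RNA-seq with OAL and -0.18 and -0.07 with OCRRF, so the numbers were taken as names. With the replicate block, 19 regions were higher and 7 lower (0.817% and 0.301%, all peaks 0.234% and 0.383%). Against OCRRF, 227 nearest genes were then higher and 89 lower (12.2% and 4.80%, all genes 7.47% and 3.08%), while the counts against OAL stayed within 1.5 times.

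Against OAL, leaving out single libraries gave 57 to 84 nearest genes higher and 75 to 111 lower. Against OCRRF it gave 23 to 171 higher and 4 to 72 lower, DESeq2 gave 196 higher (10.6%, all genes 6.40%), and TMM factors from genes over 5 CPM gave 60 higher and 57 lower. The cause was not tested in any of these. The PU.1 core share was 29.5% within 200 bases, a shorter window, and the mean of the H3K4me3 medians was 21.6 for nearest genes within 50 kb, against 20.6. Of 342 alternatives for the fold changes of single regions and genes, 315 kept direction and call, 27 missed the threshold and 0 reversed. The shares of the other 7 motifs moved with the shorter window.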
